A study of Mus musculus with 8 samples.

Results

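A set of 40 genes for ribosome assembly in the nucleolus was followed in mouse splenic follicular B cells with and without a Cre that switches on GFP-ZFP36L1. The genes were chosen by symbol, as factors of rRNA transcription and processing that MYC typically drives in growing cells. All 40 symbols matched 1 Ensembl identifier each among the 43629 in the count table, and all 40 were among the 13035 genes tested. The controls were 4 libraries of genotype Rosa26GFPZFP36L1, and the 4 libraries labelled GFP-ZFP36L1 were of genotype Rosa26GFPZFP36L1 CD23cre/+, so the Rosa26 allele was shared by both groups and Cre and transgene expression were not separated. CD23 is switched on as B cells mature, which places Cre activity in mature B cells. The labels give the cells as ex vivo follicular B cells, enriched by kit and then sorted as B220+CD93+CD21+CD23+, and give no age, sex or strain. Whether each library is its own animal is not stated, and p-values therefore reflect library-to-library spread, which may be technical.

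Ribosomes are built in the nucleolus. RNA polymerase I transcribes a long precursor rRNA there, small nucleolar ribonucleoproteins (snoRNPs) guide its methylation and pseudouridylation, and separate sets of assembly factors cut and fold it into the small and the large subunit. Resting B cells keep this pathway low and raise it, with MYC, when they are activated. ZFP36L1 binds AU-rich elements in 3' UTRs, with UAUUUAU as the core site, and promotes decay of the bound mRNA.

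The 8 libraries held 38947758 to 51024233 counts, and the 40 members took 0.388% to 0.425% of them. The lowest count of any member in any library was 892. Zfp36l1 was lower in the libraries labelled GFP-ZFP36L1, at 439 ± 28.6 against 547 ± 35.1 counts per 1000000 (CPM; SD, n = 4 each), adjusted p 0.0348 (edgeR quasi-likelihood). This direction is opposite to that of an added ZFP36L1 transcript, but the label is a genotype. Whether reads of the transgene count to Zfp36l1 is not given. The call held in 10 of 17 alternatives, and groups are named here by their labels. Gt(ROSA)26Sor, the transcript of the targeted locus, fell from 16.9 ± 2.58 to 3.90 ± 0.604 CPM (adjusted p 4.14e-05). The 7 B cell markers summed to 18632 to 21076 CPM in controls and 15672 to 20027 CPM in labelled libraries, and Pax5 among them fell (adjusted p 0.0405), while the 6 T cell markers summed to at most 1.18 CPM and Cd3e to at most 0.0483 CPM. The 6 myeloid markers summed to 2.71 to 3.42 CPM across controls and 3.76 to 5.36 CPM in labelled libraries, and Itgam among them rose (adjusted p 0.0395). The higher sum came from Itgam and not from the list as a whole. Lyz2 and Csf1r had log2 fold changes of -0.15 and 0.11 and were not called. S100a8, S100a9 and Cd14 had at most 0.0724 CPM in any library and were not tested. Cycling markers summed to 8.57 to 9.49 and 8.03 to 10.6 CPM. The part of other cells in the results was not tested. Ptprc, Cr2 and Fcer2a, the genes of B220, CD21 and CD23 in the labelled gate, had 1652 to 2106, 1156 to 1433 and 1103 to 1553 CPM. Cd93, whose protein is also in that gate, had 8.41 to 14.5 CPM.

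A pair of short sequence words was looked for in the members, and those that carry them are shown first. UAUUUAU, read as TATTTAT on the sense strand of the longest annotated 3' UTR, is the site through which ZFP36L1 could bind a member's mRNA. It was present in 7 of 40 members, 17.5%, against 29.6% of 10978 tested genes with a 3' UTR. The members' 3' UTRs were shorter, with a median of 789 nt against 1348 nt. The first site of each of the 7 genes is printed with 10 bases on either side and the heptamer in capitals, from GENCODE transcripts of build GRCm38.
Mrto4 site: agggaacagcTATTTATtttgctatgg
Ebna1bp2 site: tctgggctggTATTTATtctttgatta
Bysl site: aacaggcattTATTTATcgcagctctt
Rrs1 site: aaagcttgtgTATTTATcaaagcgggg
Ddx21 site: aactaagcaaTATTTATatgtataatt
Nop58 site 1: tatttggactTATTTATttgattgggc
Wdr12 site 1: gtatagggatTATTTATgctgtctcat
The site of Mrto4 lies at chr4:139347540-139347546 on the minus strand, 110 bases after the stop codon in a 3' UTR of 221 nt, and both of its transcripts with an annotated 3' UTR hold it. That of Ebna1bp2 lies at chr4:118626698-118626704 on the plus strand, and that of Bysl at chr17:47601240-47601246 on the minus strand. Nop58 holds 3 sites and Wdr12 holds 2, in each case in 1 transcript with a very long 3' UTR, of 7723 and 8379 nt, among 6 and 3 transcripts.

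The second word is CACGTG, the E-box bound by MYC with MAX, which reads the same on both strands. RefSeq promoter windows (GRCm38.p6, 250 bases before to 50 after the start) were at hand for 35 members, and 6 of them held the word, 17.1% (95% exact interval 6.56% to 33.6%). Of 9270 tested genes with a window 12.1% held it, and of all 32851 windows 7.15% did. The interval treats the members as random draws, which a chosen list is not, and enrichment was not tested. The sites are printed 5' to 3' on the gene's strand with up to 12 bases on either side and the E-box in capitals.
Nop2: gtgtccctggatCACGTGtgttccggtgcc
Pes1: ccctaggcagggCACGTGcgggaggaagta
Utp4: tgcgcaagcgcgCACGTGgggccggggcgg
Wdr43: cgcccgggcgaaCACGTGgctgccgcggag
Tsr1: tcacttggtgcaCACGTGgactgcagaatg
Utp20: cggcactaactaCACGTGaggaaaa
The stretch of Nop2 lies at chr6:125131811-125131840, with the word starting 60 bases before the start, and that of Pes1 at chr11:3963965-3963994. In Pes1, Utp4, Wdr43, Tsr1 and Utp20 the word began 2, 15, 17, 24 and 37 bases after the start. A match describes these letters in this window and not a bound site.

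The 40 members differed little between the groups. In the quasi-likelihood test of edgeR, with p-values adjusted over all tested genes by Benjamini-Hochberg, 0 of 40 members passed an adjusted p of 0.05, against 3.12% of all tested genes (1.83% higher and 1.3% lower). At an unadjusted p under 0.05 there were 6 members, all lower in the labelled libraries, which is 15% of the members beside 17.3% of all tested genes in either direction and 7.87% in the lower direction. DESeq2 called 2 members and limma voom 3, all lower. These tools called 6.87% and 8.08% of all tested genes, with 3.09% and 3.77% in the lower direction. With the number in the sample titles as a linear term, edgeR called 3 members, all lower. That setting called 7.9% of all tested genes, with 3.89% in the lower direction. The estimates leaned to the lower side: 30 members were below 0 and 10 above, with a median log2 fold change of -0.04. Over all tested genes 52.1% were below 0 with a median of -0.0067, and over the 6481 tested genes within the members' range of control levels 59.5% were below 0 with a median of -0.02. In bulk RNA, fewer cells of a type and less RNA per cell cannot be told apart.

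The 95% interval of every one of the 40 members lay inside a 1.5-fold change in either direction, where 77.3% of all tested genes and 97.7% of those in the members' range of control levels did so. The lowest bound was a fold of 0.736, for Nop10, and the highest was 1.20, for Rrp1b. Estimates ran from -0.22 for Ebna1bp2 to 0.06 for Ddx10 on the log2 scale, with a median standard error (SE) of 0.06.

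**Figure D1:**
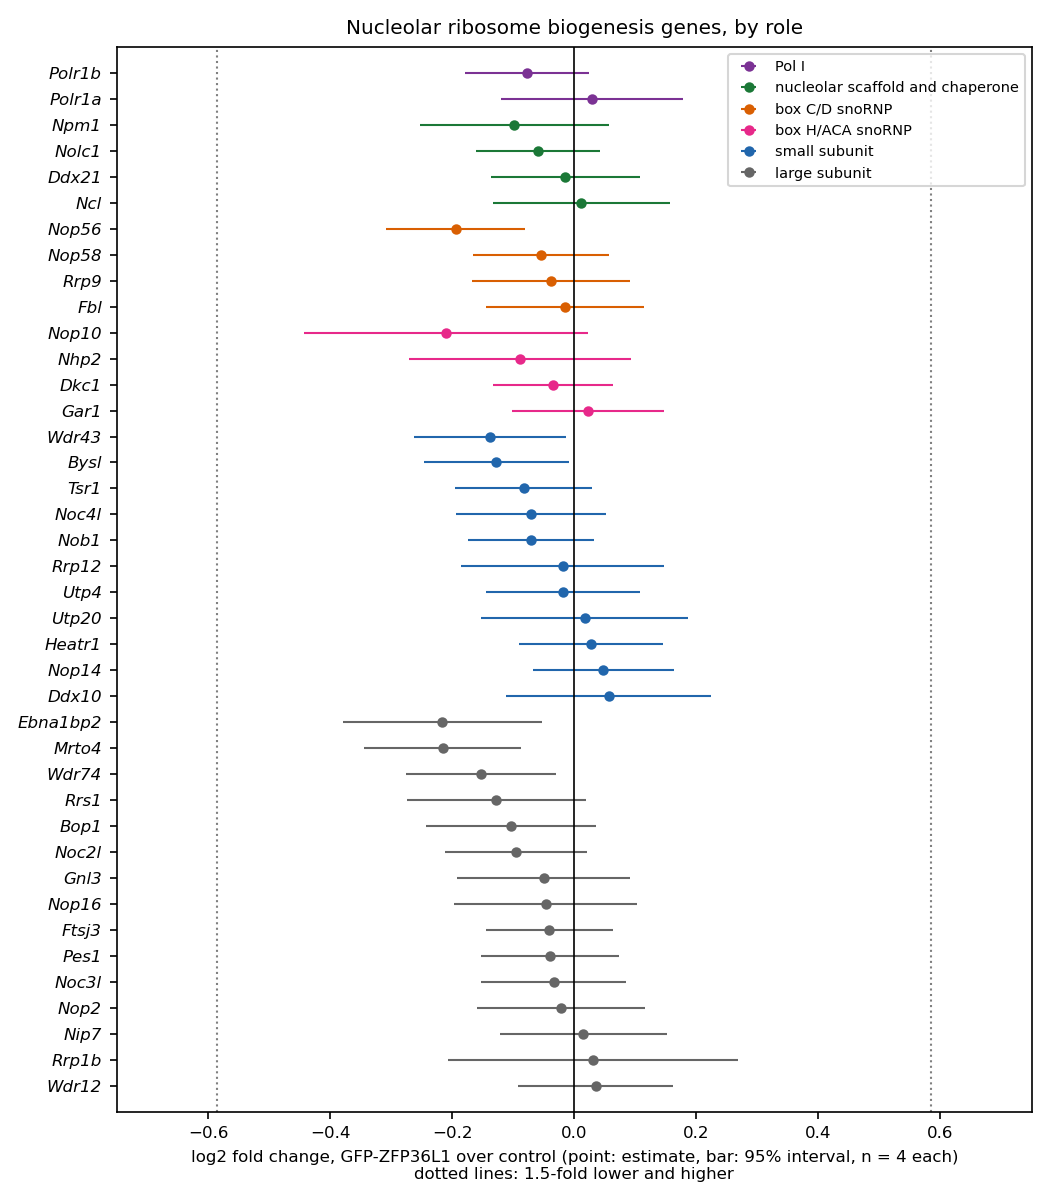
Log2 fold change of each of the 40 members, GFP-ZFP36L1 over control (x axis; points are estimates, bars 95% intervals, n = 4 libraries each), grouped by role along the y axis. All bars lie between the dotted lines at 1.5-fold, and 30 of 40 points lie left of 0.

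The groups did not overlap in 7 members, all lower in the labelled libraries, and in 0 in the higher direction. These 7 are 17.5% of the members, beside 4.98% of all tested genes lower without overlap, 6.24% higher without overlap, 11.2% in either direction, and, in the lower direction, 6.68% of the genes in the members' range of levels. They were Nop56, Mrto4, Ebna1bp2, Wdr74, Bysl, Polr1b and Nob1, and their differences were small, from -0.22 to -0.07 on the log2 scale.

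RNA polymerase I was represented by its 2 largest subunits. Polr1b (ENSMUSG00000027395) had 51.8, 51.1, 54.3 and 55.0 CPM in control replicates 1 to 4 and 49.6, 50.4, 51.1 and 50.1 CPM in the labelled replicates. Every labelled library lay below every control, the nearest pair by under 0.1 CPM, and the log2 fold change was -0.08 ± 0.05 (SE; adjusted p 0.435). Polr1a, the catalytic partner, had 85.5 ± 6.90 CPM across the controls and 87.3 ± 6.21 CPM in labelled libraries, and its groups overlapped.

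The abundant nucleolar proteins showed no member past the test. Ncl encodes nucleolin, which binds precursor rRNA and chromatin of the rDNA. Its level was 699, 667, 703 and 677 CPM in control replicates 1 to 4 and 731, 647, 651 and 739 CPM in the labelled ones. Labelled replicates 1 and 4 lay above every control and replicates 2 and 3 below every control, and the log2 fold change was 0.01 ± 0.07 (SE). Npm1, the histone chaperone nucleophosmin, had 623, 572, 596 and 555 CPM across the controls and 611, 531, 509 and 542 CPM across the labelled libraries. Labelled replicate 1 was within the controls and the other 3 were below them, at a log2 fold change of -0.10 ± 0.07 (SE; adjusted p 0.526). Nolc1, a chaperone of snoRNPs, and Ddx21, an RNA helicase of rRNA transcription and processing, had log2 fold changes of -0.06 and -0.01.

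Among the box C/D snoRNP genes, which carry out ribose methylation, Nop56 stood lowest. It encodes a core scaffold protein of the particle and itself hosts snoRNAs in its introns, 5 of them annotated. A copy, AC122861.1, is 99.3% identical to Nop56 over 732 bases and has no row in the count table. How reads that match both were counted is not given. Nop56 (ENSMUSG00000027405, chr2:130274430-130279313, plus strand) had 200, 180, 178 and 178 CPM in control replicates 1 to 4. In the labelled replicates it had 163, 165, 159 and 158 CPM, all below every control. The log2 fold change was -0.19 ± 0.05 (SE; 95% interval -0.31 to -0.08), with an adjusted p of 0.0733 (edgeR quasi-likelihood), just outside the threshold. Its adjusted p was 0.0114 by DESeq2, 0.0322 by limma voom and 0.0223 in edgeR with the number in the sample titles as a linear term, and it ran from 0.0114 to 0.181 over the 17 alternatives. The authors' deposited table gives it a log2 fold change of -0.18 and an adjusted p of 0.0153.

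The other members of that particle overlapped between groups. Fbl, the methyltransferase fibrillarin, had 138, 124, 126 and 118 CPM across the controls and 135, 123, 120 and 124 CPM across the labelled libraries, with a log2 fold change of -0.02 ± 0.06 (SE). A processed copy, Gm5812, is 96.85% identical to Fbl over 984 bases and was counted at 5.66 and 5.84 CPM, so reads could be divided between them. Nop58, the partner of Nop56, and Rrp9, a protein specific to the U3 particle, had log2 fold changes of -0.05 and -0.04.

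**Figure D2:**
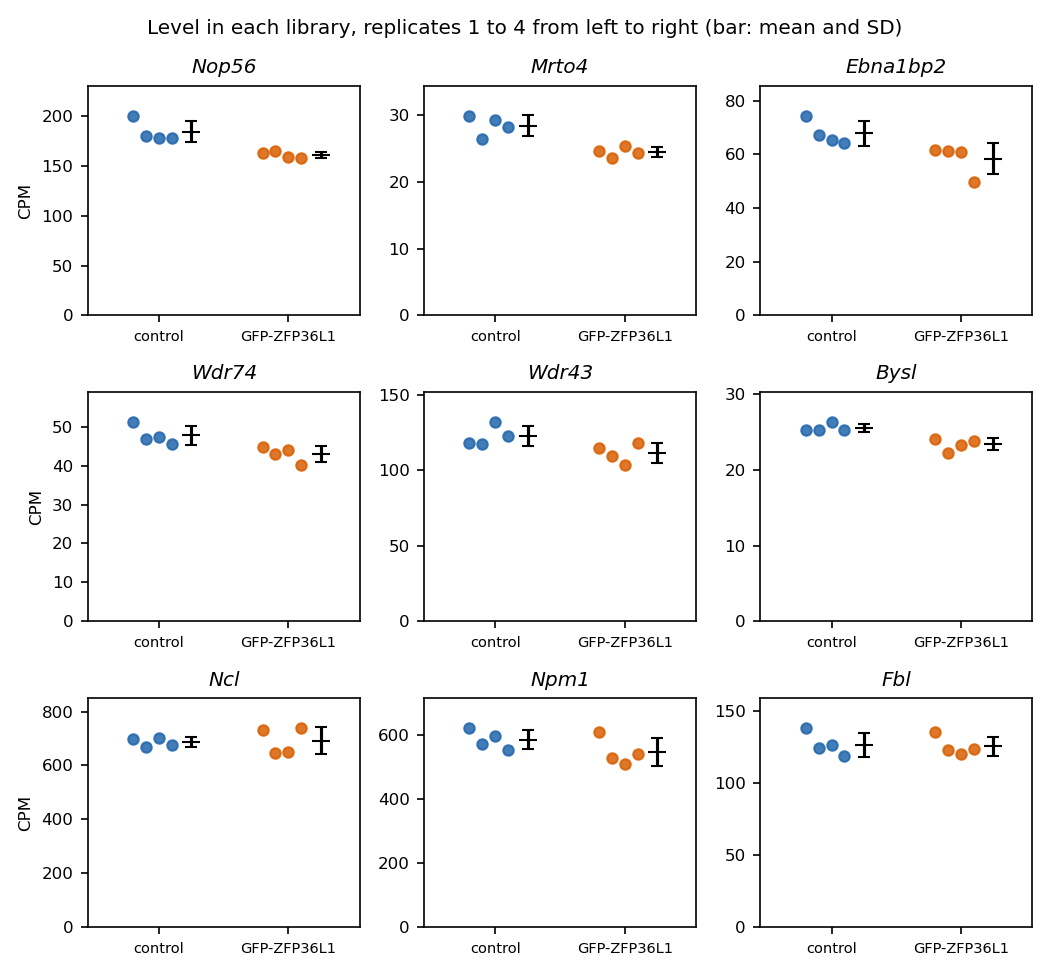
CPM in each library (y axes start at 0) for the 6 members with an unadjusted p under 0.05 and for Ncl, Npm1 and Fbl, with mean and SD beside the points. Nop56, Mrto4, Ebna1bp2, Wdr74 and Bysl have every labelled library below every control, and the other 4 genes overlap.

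The box H/ACA snoRNP, which converts uridine to pseudouridine and includes the pseudouridine synthase encoded by Dkc1, had its widest spread in Nop10. Nop10, the smallest core protein, had 65.8, 57.9, 52.2 and 49.8 CPM in control replicates 1 to 4 and 58.5, 47.2, 47.2 and 42.3 CPM in the labelled ones. Labelled replicate 1 lay among the controls and the other 3 below them. The log2 fold change was -0.21 ± 0.11 (SE), with an interval from -0.44 to 0.02 and an adjusted p of 0.342. Dkc1, Gar1 and Nhp2 had log2 fold changes of -0.03, 0.02 and -0.09, and their groups overlapped.

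Of the 11 small subunit factors, 7 were below 0 and 4 above. Wdr43, a protein of the early processing complex, had 118, 118, 132 and 123 CPM in control replicates 1 to 4 and 115, 109, 104 and 118 CPM in the labelled ones. Labelled replicate 4 lay just above the lowest control, and the log2 fold change was -0.14 ± 0.06 (SE; adjusted p 0.23). The call was made with limma voom alone, at an adjusted p of 0.0417, in a range up to 0.509. Bysl, the bystin of late small subunit maturation, had 25.3, 25.3, 26.3 and 25.3 CPM across the controls and 24.1, 22.3, 23.3 and 23.8 CPM across the labelled libraries. The groups did not overlap, at -0.13 ± 0.05 (SE; adjusted p 0.249).

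The remaining small subunit factors lay closer to 0. Nob1, the endonuclease that makes the final cut of the small subunit rRNA, had 53.6 ± 1.36 against 51.0 ± 1.74 CPM without overlap, controls first, at an adjusted p of 0.486. Tsr1, a late assembly factor, and Noc4l had log2 fold changes of -0.08 and -0.07. Rrp12, Utp4, Utp20, Heatr1, Nop14 and the helicase gene Ddx10 ran from -0.02 to 0.06. Bysl shares 361 exon bases with Ccnd3 on the other strand and Tsr1 shares 1240 with Srr, and how strand was set in the counting is not given.

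Of the 15 large subunit factors, 12 were below 0, among them both lowest estimates of all members. Mrto4 encodes an assembly factor that resembles a stalk protein of the ribosome. It had 29.9, 26.4, 29.3 and 28.2 CPM in control replicates 1 to 4 and 24.7, 23.6, 25.4 and 24.4 CPM in the labelled ones, with no overlap. A copy, Mrto4-ps1, is 98.3% identical to Mrto4 over 721 bases and has no row in the count table. The counting of reads that match both is not given. Mrto4 (ENSMUSG00000028741, chr4:139347435-139352576, minus strand) had a log2 fold change of -0.22 ± 0.06 (SE; 95% interval -0.34 to -0.09) and an adjusted p of 0.0761 (edgeR quasi-likelihood). Its adjusted p was 0.0235 by DESeq2, 0.0455 by limma voom and 0.0284 in edgeR with a linear term for the title number, with a range of 0.0235 to 0.214 over all 17. The authors' deposited table gives -0.20 and 0.0258.

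Ebna1bp2, an early large subunit factor, had 74.3, 67.3, 65.3 and 64.3 CPM in control replicates 1 to 4 and 61.6, 61.4, 60.8 and 49.7 CPM in the labelled ones. The groups did not overlap, and labelled replicate 4 stood well below the other 3. Its log2 fold change was -0.22 ± 0.07 (SE; adjusted p 0.147), and without that library it was -0.14 with an adjusted p of 0.281, in a range of 0.0411 to 0.313 over the alternatives. Wdr74 had 51.2, 46.8, 47.3 and 45.6 CPM across the controls and 44.7, 42.9, 43.97 and 40.1 CPM across the labelled libraries, again with no overlap. Its log2 fold change was -0.15 ± 0.06 (SE; adjusted p 0.174).

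Bop1, Pes1 and Wdr12 encode a complex needed for processing of the large subunit rRNA. The 3 genes had log2 fold changes of -0.10 ± 0.06, -0.04 ± 0.05 and 0.04 ± 0.06 (SE), and the groups overlapped in each. The rRNA methyltransferase gene Nop2 and Ftsj3 had -0.02 and -0.04, and Nop16 -0.05. Rrs1, which helps load the ribonucleoprotein of the large subunit, and Noc2l and Noc3l had -0.13, -0.10 and -0.03. Gnl3, the GTPase nucleostemin, had -0.05, and Nip7 and Rrp1b had 0.01 and 0.03. Noc2l shares 598 exon bases with Samd11 on the other strand.

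In the authors' deposited table, 2 of 40 members, Nop56 and Mrto4, had an adjusted p under 0.05, both lower, where 6.63% of the 13191 genes with an adjusted p did and 2.87% were lower. The sign of the log2 fold change in the authors' deposited table was that of the present fit for all 40 members. That table compares the same groups of this series, so the shared signs and its adjusted p-values are not independent evidence.

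Levels between members were compared per length, as CPM per kb of exon. In the controls the members ran from 2.70 for Wdr12 to 220.1 for Npm1, with a median of 18.4, and 38 of 40 lay above the median of all tested genes, 6.39. Npm1 at 220.1 ± 11.1 was far above the second, Ncl, at 67.4 ± 1.72, and Noc2l at 56.8 ± 3.34 came next (SD, n = 4). Nop10 at 50.9 ± 6.43, Ddx21 at 47.7 ± 0.750 and Nop56 at 44.97 ± 2.59 followed. The mean ± SD ranges of neighbours overlapped from Noc2l down to Nop56, while that of Npm1 did not overlap that of Ncl, nor that of Ncl that of Noc2l. Exon length is that of all annotated transcripts merged, which lowers the value of genes with long alternative ends such as Wdr12.

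**Figure D3:**
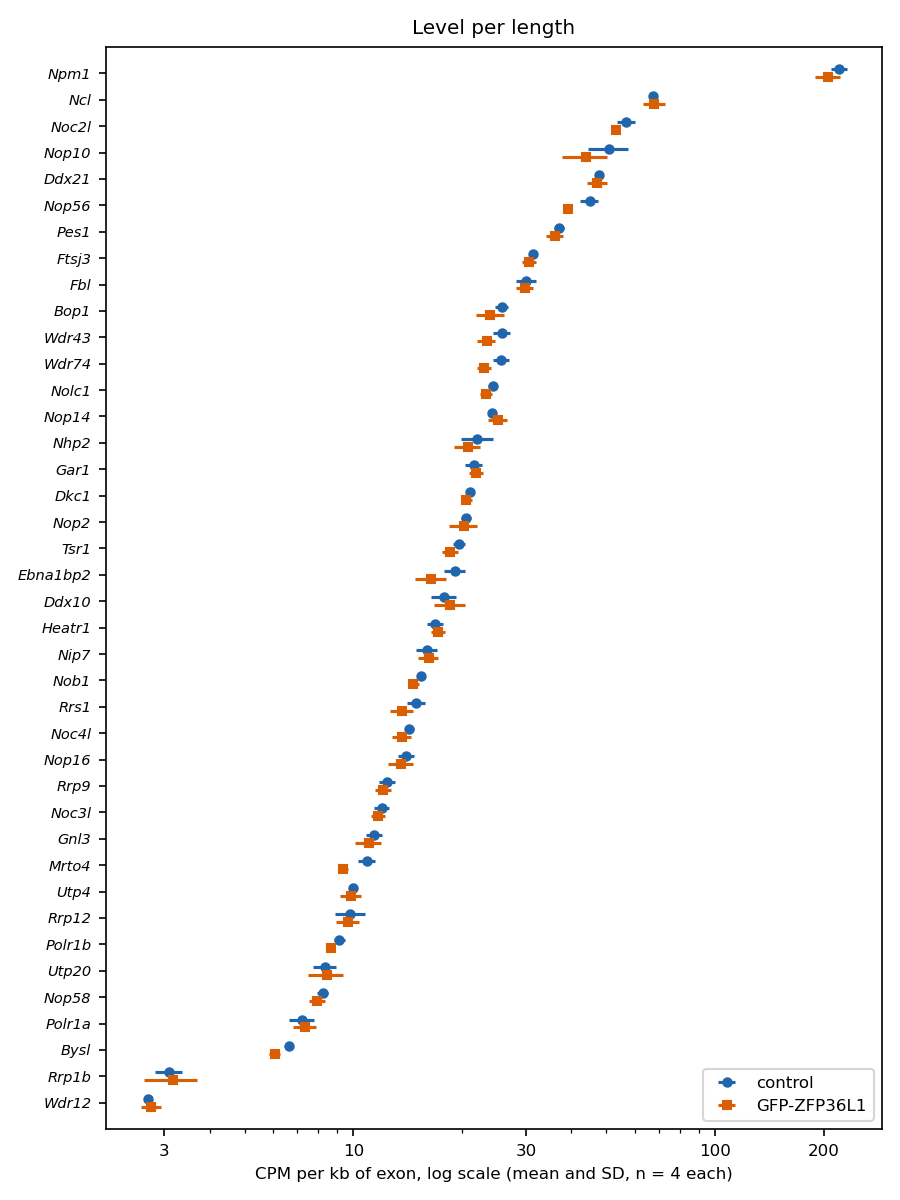
Level of each member in CPM per kb of exon (x axis, log scale) in controls (circles) and labelled libraries (squares), mean and SD of 4 libraries. Npm1 is highest at 220.1 and Wdr12 lowest at 2.70 in the controls, and the distance between genes is far larger than that between groups.

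Members were steady among libraries of a group, with a median coefficient of variation of 5.09% in the controls and 6.0% in the labelled libraries. The lowest in the controls was Utp4 at 1.01% and the highest Nop10 at 12.6%, and in the labelled libraries Rrp1b was highest at 16.6%. Summed over the 40 members, the level was 4094 ± 99.9 CPM across the controls and 3952 ± 170 CPM in the libraries labelled GFP-ZFP36L1 (SD, n = 4 each). By library the sums were 4176, 3996, 4184 and 4020 CPM in control replicates 1 to 4 and 4150, 3853, 3775 and 4030 CPM in the labelled ones. Labelled replicates 1 and 4 lay within the controls and replicates 2 and 3 below them. These sums are after TMM scaling, and the lower direction depends on it. As a share of raw counts the members took 0.4041%, 0.3893%, 0.4114% and 0.3993% in control replicates 1 to 4. In labelled replicates 1 to 4 they took 0.4103%, 0.3882%, 0.3893% and 0.4247%, with replicate 4 the highest of all 8 libraries.

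Libraries took the extreme values of members unequally. Labelled replicate 3 was the lowest of all 8 libraries in 13 of 40 members, where it was lowest in 7.24% of all tested genes, and replicate 2 was lowest in 7 members, beside 9.59%. Labelled replicate 4 was lowest in 8 members and highest in 8, beside 24.3% and 21.8% of all tested genes. Labelled replicate 1 was lowest in 5 and highest in 7, beside 15.5% and 13.9%. Of the controls, replicate 3 was highest in 12 members, beside 8.24% of all tested genes, and replicate 1 in 10, beside 20.4%. These shares were not tested.

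**Figure D4:**
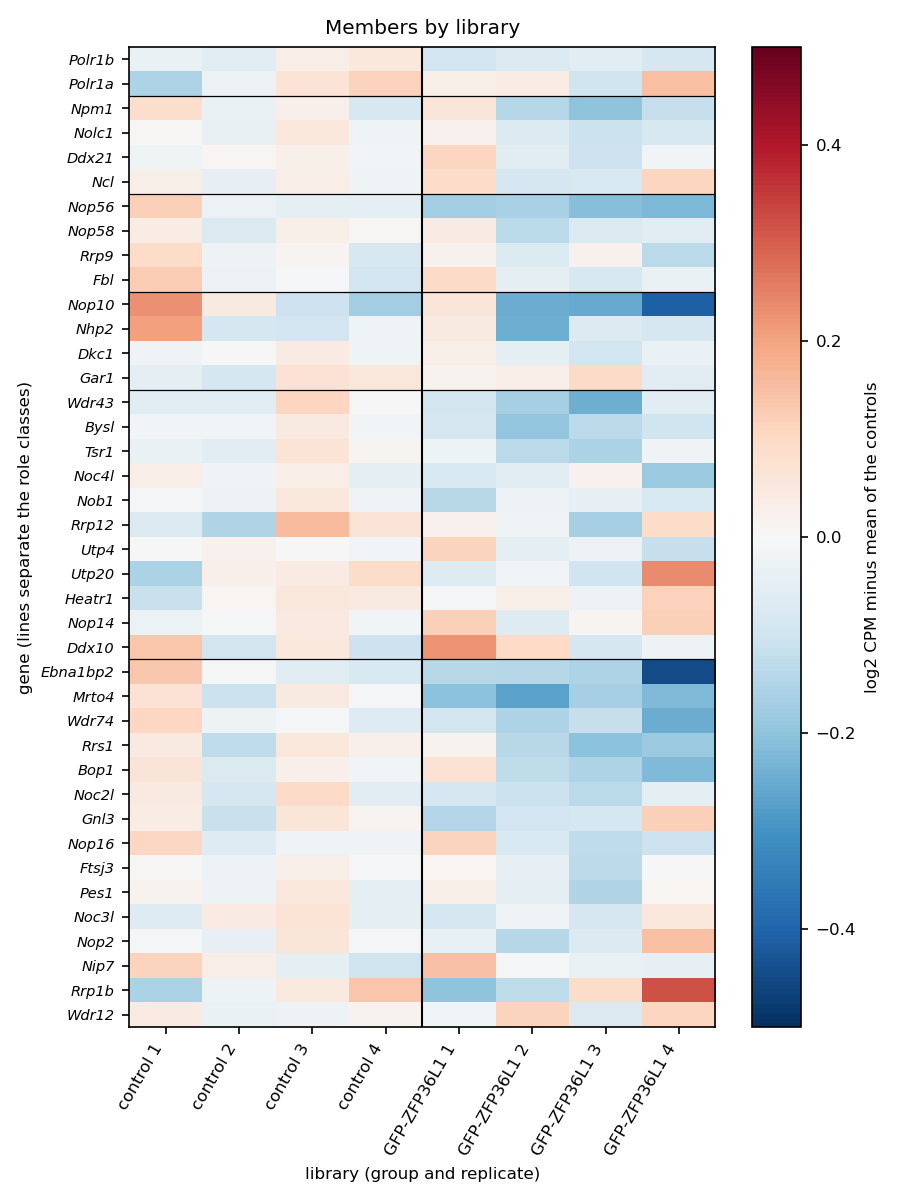
Log2 CPM of each member (rows, by role) in each library (columns), minus the mean of the 4 controls. Labelled replicates 2 and 3 are below the control mean in 35 members each, replicate 4 in 28 and replicate 1 in 18. Control replicates 1 to 4 are below it in 17, 33, 10 and 27 members.

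Some members followed the number in the sample titles, which runs from 1 to 8 and alternates between the groups. Controls carry the odd numbers and labelled libraries the even ones, so the labelled group has the later numbers on average. The group comparison without a term for the number does not take this offset into account. With that number as a linear term beside group, 6 of 40 members had a slope at an adjusted p under 0.05, or 15%, beside 20.8% of all tested genes. Nop10 had a slope of -0.07 ± 0.01 log2 per number (SE; adjusted p 0.00134 by edgeR's quasi-likelihood test). Rrp1b, a large subunit factor, had a slope of 0.07 ± 0.01 (SE; adjusted p 0.00237). Its level was 21.3, 23.4, 24.6 and 26.2 CPM in control replicates 1 to 4 and 20.7, 21.8, 25.3 and 29.7 CPM in the labelled ones. Of the other 4, Ebna1bp2, Nip7 and Ddx10 had negative slopes and Utp20 a positive one. The labels do not say what the number stands for.

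Set beside the printed heptamers, 3 of the 6 members with an unadjusted p under 0.05 hold UAUUUAU, namely Mrto4, Ebna1bp2 and Bysl, and 4 of the other 34 do. The 7 members with the site had a median log2 fold change of -0.13, from -0.22 to 0.04, and the 33 without it -0.04, from -0.21 to 0.06. Nop56, Wdr43 and Wdr74 do not hold it in the annotated 3' UTR. The 6 members with an E-box in the window had a median of -0.03 and the 29 without -0.05. These splits are descriptions with no test, of few genes and of the members alone. The members at an unadjusted p under 0.05 were picked from this same comparison, and a role of the site was not tested.

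Other genes of the pathway were described with the same fit. Of 126 further ribosome biogenesis genes, all tested, 1 fell (0.794%, beside 1.3% of all tested genes) and 0 rose. Below 0 were 91, or 72.2%, beside 52.1% of all tested genes, with a median log2 fold change of -0.05. The gene that fell was Ppan, a large subunit factor, at 61.1, 56.6, 61.0 and 58.4 CPM in control replicates 1 to 4 and 49.5, 49.7, 52.3 and 52.4 CPM in the labelled ones. Its log2 fold change was -0.22 ± 0.05 (SE; adjusted p 0.0379 by edgeR's quasi-likelihood test). That call was lost with upper-quartile scaling, at 0.0594, and without any 1 library except GFP-ZFP36L1 replicate 1, at up to 0.134. By class, 0 of 14 polymerase I and rDNA factors, 0 of 41 small subunit factors, 1 of 43 large subunit factors, 0 of 9 snoRNP factors, 0 of 13 exosome genes and 0 of 6 snoRNA host genes passed. At an unadjusted p under 0.05 there were 9 of the 126, all lower, which is 7.14% beside 7.87% of all tested genes in the lower direction.

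The MYC network had 0 of 11 tested genes past the threshold and 1 at an unadjusted p under 0.05, Myc itself. That 1 gene, lower in the labelled libraries, is 9.09%, beside 7.87% of all tested genes in the lower direction. Myc, which activates ribosome biogenesis genes, had 46.7, 40.4, 54.2 and 51.8 CPM in control replicates 1 to 4 and 40.5, 33.9, 38.0 and 47.4 CPM in the labelled ones. The groups overlapped, and the log2 fold change was -0.27 ± 0.11 (SE; adjusted p 0.223). Its partner Max had -0.10 ± 0.06 and the repressor gene Mnt -0.01 ± 0.04 (SE). Of 23 growth genes outside the nucleolus 0 passed. At an unadjusted p under 0.05 there were 4, all lower, or 17.4%, beside 7.87% of all tested genes in the lower direction. Among them Eif4a1, a translation initiation helicase, was at -0.21 ± 0.06 (SE; adjusted p 0.0978).

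Cytosolic ribosomal protein genes, which encode protein components of the ribosome itself, had 0 of 78 past the threshold and 2 at an unadjusted p under 0.05. These 2, both lower, are 2.56%, beside 7.87% of all tested genes in the lower direction. All 78 estimates were below 0, from -0.40 for Rpl24, which was counted at only 1.49 CPM in the controls, to -0.05 for Rps7, with a median of -0.13 and a median SE of 0.10. Their estimates lay farther below 0 than those of the 40 members, whose median was -0.04, and the difference between the lists was not tested.

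**Figure D5:**
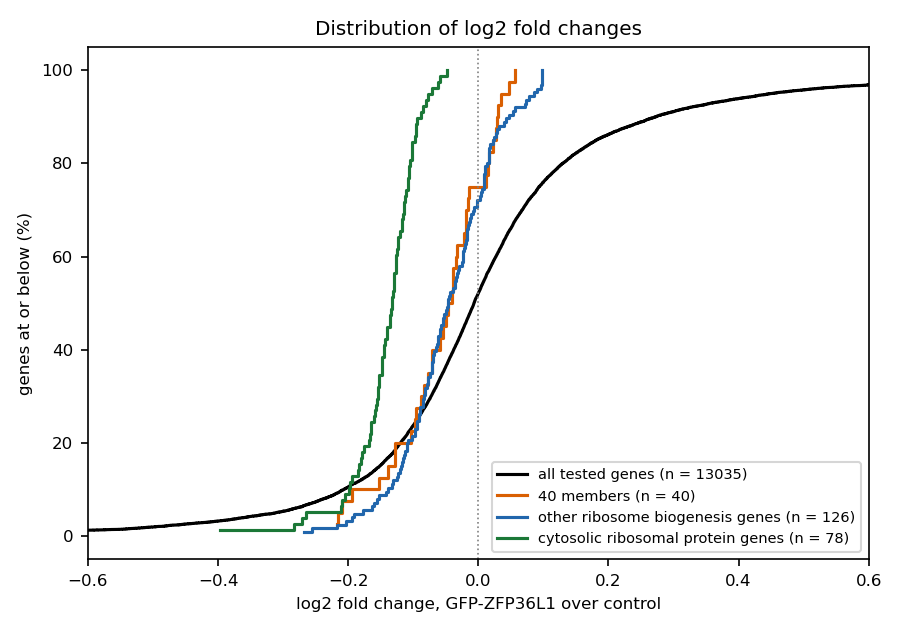
Cumulative share of genes (y axis, %) at or below a log2 fold change (x axis, GFP-ZFP36L1 over control) for all tested genes, the 40 members, 126 other ribosome biogenesis genes and 78 ribosomal protein genes. The curves of the members and of the other biogenesis genes run close together, crossing 0 at 75% and 72.2%.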

How the data were processed

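Stranded mRNA libraries from 8 RNA samples were read from both ends, per the labels. The submitters' processing notes name build GRCm38 and the tools Trim Galore, HTSeq, TopHat2 (version 2.0.12) and DESeq2 (version 1.10.1), with roles and settings not given in the sources used here. Raw counts per Ensembl gene were deposited by the authors and were the basis of every test. The log2 fold changes and adjusted p-values of the authors' deposited comparison table are quoted as their own. Of the value columns of the count table, 0 were left without a sample.

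Genes were kept by filterByExpr, scaled by TMM and compared in R 4.3.3 with edgeR 4.0.16 (quasi-likelihood, robust, group as the sole term), with Benjamini-Hochberg adjustment over 13035 genes. Intervals use the test's degrees of freedom. The code was tested on simulated data. Symbols, exon lengths and 3' UTRs came from GENCODE M21 (GRCm38), with a symbol for 42548 of 43629 identifiers. How strand was set in the counting is also not given. Exons of 16 members overlap a gene on the other strand, and 7 members have a copy at least 95% identical over at least 300 bases.

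The members and lists were chosen with earlier results of these data known. The rule for named genes took all 40 members. It gave library values to those called, those at an unadjusted p under 0.05, Ncl, Npm1, Fbl and the smallest p in each role class, and took called pathway genes and Myc. Library values of Rrp1b were added after its values were seen. Alternatives were DESeq2 1.42.0, RLE or upper-quartile scaling, voom of limma 3.58.1 with quality weights, no low-count filter or one at 1 CPM in 4 libraries, no robust prior, a linear term for the title number, removal of immunoglobulin genes, and omission of each library.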

Additional observations from a re-analysis of the deposited data

Results flagged for a closer look

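In groups of 4, a library whose gap to its nearest neighbour took most of the group's range was found 6 times in 88 groups looked at, 5 of them in members. Chance gives about 1 in 20 groups. Nop56 had 200.2 CPM in control replicate 1, where the next control had 180.3. Bysl had 26.3 CPM in control replicate 3, against 25.3 in the next. Nob1 had 55.6 CPM in control replicate 3, against 53.2. Ebna1bp2 had 49.7 CPM in GFP-ZFP36L1 replicate 4, against 60.8. Nip7 had 55.2 CPM in GFP-ZFP36L1 replicate 1, against 49.5. Zfp36l1 had 599.4 CPM in control replicate 1, against 534.6.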

How the results depend on the processing

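Members called numbered 0 under 14 of 17 alternatives, 2 with DESeq2 (Mrto4, Nop56), 3 with limma voom (those and Wdr43) and 3 with a linear term for the title number (the first pair and Ebna1bp2). With 1 library left out the count stayed at 0 and the members' median log2 fold change ran from -0.0688 to -0.0291. All tested genes called numbered 407, and 895 with DESeq2, 1053 with limma voom, 1030 with the title number, and 79 to 948 with 1 library left out: 240, 100, 79 and 134 without control replicates 1 to 4, and 948, 166, 120 and 233 without GFP-ZFP36L1 replicates 1 to 4. Called genes of the pathway list numbered 1, then 3, 5, 4 and 0 with DESeq2, limma voom, the title number and upper-quartile factors, and 0 to 3 with 1 library left out. Of 40 members, 28 kept their sign under all 17 alternatives and 12, none of them called, did not. With limma voom the changed values were -0.0436 for Polr1a, -0.0355 for Ncl, -0.0532 for Utp20, -0.0154 for Heatr1 and -0.00329 for Rrp1b. With upper-quartile factors Ddx21 was at 7.37e-05, and with the title number Fbl was at 0.0121, Utp20 at -0.0238 and Rrp1b at -0.0468. With 1 library left out, values ran from -0.0198 to 0.0709 for Polr1a, -0.0165 to 0.0423 for Ncl, -0.0501 to 0.0138 for Ddx21, -0.0467 to 0.0287 for Fbl, -0.00678 to 0.0527 for Gar1, -0.0681 to 0.0354 for Rrp12, -0.0569 to 0.0547 for Utp20, -0.0572 to 0.0169 for Utp4, -0.00801 to 0.0471 for Heatr1, -0.0787 to 0.0166 for Nop2, -0.0717 to 0.109 for Rrp1b and -0.0228 to 0.0528 for Nip7. The cause was not tested. No paired analysis was possible because the groups share no replicate number in the labels, which do not say that neighbouring title numbers mark a pair.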
